A study of Mus musculus with 12 samples.

Results

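Interferon-stimulated genes are genes whose transcripts rise when a cell senses interferon. The 9 genes described here are Cxcl10, Ifit1, Ifit3, Isg15, Ifi27l2a, Irf1, Irf7, Irf9 and Stat2, taken by symbol from the 24411 symbols listed in each of 12 RNA-seq libraries of NR5A1(+) cells from fetal mouse gonads. They were chosen from values measured in these libraries, since Cxcl10 had been seen among the largest increases with deferoxamine (Dfo), an iron chelator, and the other 8 were added as genes of the same response. Values of the comparison of Dfo with control are therefore a description of the 9 genes, with no test. All 9 reached 1 TPM (transcripts scaled by their length to the same total in each library) in at least 2 libraries and were among the 16133 genes tested.

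The libraries fall into 5 groups. Dfo XY culture (n = 3) and control XY culture (n = 3) are XY gonads, and control XX culture (n = 2) are XX gonads, in each case from E10.8 embryos and grown for 19.2 h as explants that kept the aorta, mesonephros and mesenchyme, in DMEM with 10% horse serum. Dfo was given at 150 µM. E11.5 XY and E11.5 XX, with 2 libraries each, are gonads labelled wild type, and the labels repeat the culture text for them, so how they were collected is not settled by it. All groups carry the genotype Nr5a1-hCD271, a cell-surface tag under Nr5a1, the gene of the nuclear receptor that marks gonadal somatic cells, and total RNA was taken from NR5A1(+) cells with libraries made by the SMART-Seq Stranded Kit. The labels do not say whether replicates are separate embryos; the p-values then cover only the spread among these libraries, which may be technical. TPM keeps no sequencing depth, so no counting interval or detection limit is given, and a value of 0 means only that a gene is listed at 0.

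Type I interferons bind a receptor of Ifnar1 and Ifnar2, whose kinases activate transcription factors that include Stat2. Stat2 joins Irf9 in a complex that binds the interferon-stimulated response element (ISRE) in the promoters of genes such as Ifit1, Ifit3 and Isg15, and Irf7 then drives more interferon. Interferon gamma acts through another site, the gamma-activated site of genes such as Irf1. Cxcl10, a chemokine that draws T cells, responds to both routes and also to NF-kB, the factor that carries signals of Toll-like receptors and tumour necrosis factor.

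Promoter sequence is shown for the 6 genes whose RefSeq window held one of these sites. RefSeq windows on GRCm38.p6 run from 250 bases before the transcript start to 50 after it, and 8 of the 9 genes have 1 or 2 of them, 10 windows in all. Capitals mark the ISRE core GAAANNGAAA, the gamma-activated site TTCNNNGAA and the NF-kB consensus site, each on either strand, and the stretches read 5′ to 3′ on the strand of the gene.
Cxcl10, chr5:92348969-92349114, minus strand: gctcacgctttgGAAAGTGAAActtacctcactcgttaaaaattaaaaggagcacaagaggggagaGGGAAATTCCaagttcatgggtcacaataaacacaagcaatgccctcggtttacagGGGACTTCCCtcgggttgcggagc
Ifit1, chr19:34640759-34640839, plus strand: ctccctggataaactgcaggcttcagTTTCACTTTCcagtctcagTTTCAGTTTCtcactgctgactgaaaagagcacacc
Ifit3, chr19:34583359-34583439, plus strand: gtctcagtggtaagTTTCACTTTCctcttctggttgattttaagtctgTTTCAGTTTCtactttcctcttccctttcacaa
Isg15, chr4:156200858-156200918, minus strand: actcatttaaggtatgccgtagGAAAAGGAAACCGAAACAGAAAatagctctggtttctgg
Stat2, chr10:128270258-128270308, plus strand: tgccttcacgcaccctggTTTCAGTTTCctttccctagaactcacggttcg
Irf1, chr11:53769904-53770013, plus strand: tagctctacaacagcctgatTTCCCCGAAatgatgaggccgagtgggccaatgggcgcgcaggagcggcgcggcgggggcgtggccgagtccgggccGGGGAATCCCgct

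The ISRE core stood in the windows of 5 of the 8 genes. These were 5 of their 10 windows, against 3.44% of all 32851 promoter windows of the table. Isg15 held 3 overlapping cores between 78 and 57 bases before the start. Ifit1 held 2, from 104 and from 85 bases before it, and Ifit3 held 2, from 156 and from 122. Cxcl10 held 1 core, 213 bases before its start, and was the only one of the 8 with an ISRE core and an NF-kB consensus match in 1 window; its 2 NF-kB matches began 159 and 103 bases before the start and overlapped neither the core nor each other. An NF-kB match stood in 4.51% of all windows. Of the other members, Irf1 held the gamma-activated site, 90 bases before the start (8.3% of all windows hold one), and an NF-kB match at 13 bases before it. Irf7 and Irf9 had a window without any of the 3 sites. The core of the hypoxia response element, ACGTG or GCGTG, stood in windows of 3 of the 8 genes (Cxcl10, Stat2 and Irf1). These were 4 of the 10 windows, beside 43.8% of all windows. A match is a string of letters and is not a measured binding site.

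In the Dfo cultures, the chemokine and the IFIT genes had the largest differences of the 9. Cxcl10 (mm10, chromosome 5, 92346638 to 92348889) had 19.38, 17.60 and 26.85 TPM in Dfo XY cultures, against 0.71, 0.70 and 0.72 TPM in control XY cultures. Every Dfo library lay far above the control libraries, whose values were almost equal. The mean of 21.3 ± 4.91 TPM with Dfo was 30.0 times the control mean of 0.71 ± 0.01 TPM (SD, n = 3 each), and the log2(TPM + 1) difference was 3.68 ± 0.32 (SE). On that scale the change of such low genes comes out smaller than on the TPM scale. Cxcl10 overlaps the antisense gene Art3, which lay between 0 and 2.85 TPM over the 12 libraries, and whether reads were counted by strand is unstated in the sources used here.

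The IFIT proteins bind viral RNA. Ifit1 (chromosome 19, 34640871 to 34650009) had 8.43, 8.78 and 16.01 TPM in Dfo XY cultures, against 1.61, 2.02 and 1.75 TPM in control XY cultures. The groups did not overlap, the ratio of means was 6.17, and the log2 difference was 2.06 ± 0.29. Ifit3 (chromosome 19, 34583531 to 34588731) had 16.65, 7.64 and 21.58 TPM in Dfo XY cultures, against 3.21, 3.13 and 4.1 TPM in control XY cultures, a log2 difference of 1.76 ± 0.40. Dfo replicate 2 was the lowest of its group for Ifit3 and still above every control. Ifit3 has a near-identical neighbour, Ifit3b, and reads could be split between them; Ifit3b had 6.19, 3.73 and 9.75 TPM with Dfo, against 0.47, 0.54 and 1.20 TPM in controls, with the Dfo libraries in the same order as for Ifit3.

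Isg15, a ubiquitin-like protein that is attached to other proteins, and the factors Irf1 and Stat2 were higher by less. Isg15 (chromosome 4, 156199424 to 156200818) had 27.33, 18.55 and 24.85 TPM in Dfo XY cultures, against 11.79, 6.66 and 11.44 TPM in control XY cultures, a log2 difference of 1.18 ± 0.49. Irf1 (chromosome 11, 53770014 to 53778374) had 10.23, 11.74 and 16.92 TPM with Dfo, against 5.98, 5.42 and 9.88 TPM in controls, a difference of 0.80 ± 0.28 on log2(TPM + 1). Here the lowest Dfo library and the highest control library nearly met. Stat2 (chromosome 10, 128270559 to 128292849) had 17.23, 17.63 and 21.44 TPM with Dfo, against 14.06, 14.60 and 15.05 TPM in controls, a difference of 0.34 ± 0.16.

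The remaining 3 genes overlapped between Dfo and control. Irf7 (chromosome 7, 141262706 to 141266481) had 9.40, 4.82 and 5.96 TPM with Dfo, against 6.93, 4.38 and 6.60 TPM in controls. Irf9 (chromosome 14, 55603571 to 55610030), the DNA-binding partner of Stat2, had 22.62, 23.48 and 25.26 TPM with Dfo, against 25.33, 24.20 and 30.37 TPM in controls. Ifi27l2a (chromosome 12, 103442167 to 103443680), an interferon-induced gene of the mouse, had 10.86, 4.66 and 5.78 TPM with Dfo, against 6.27, 12.58 and 12.40 TPM in controls. Its log2 difference was negative, -0.51 ± 0.36, in contrast to the 7 genes with a positive one. Irf7 overlaps Phrf1, which is on the other strand and had 62.56 to 74.77 TPM with Dfo and 55.02 to 68.87 TPM in controls. Irf9 overlaps Rnf31 on its own strand, which had 15.16 to 18.23 TPM with Dfo and 16.93 to 19.38 TPM in controls.

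As a description of the choice and not as a test, 3 of the 9 genes (Cxcl10, Ifit1 and Ifit3) lay past the limma threshold used over all genes, an adjusted p below 0.05, with higher levels with Dfo. Over all genes tested, 4.98% were called higher and 10.5% lower. In 6 of the 9 every Dfo library lay above every control library, as 11.6% of all genes did. The median log2 difference of the 9 was 0.80, beside -0.17 over all genes tested. Since the genes were chosen with this comparison known, nothing is read from these counts.

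**Figure D1:**
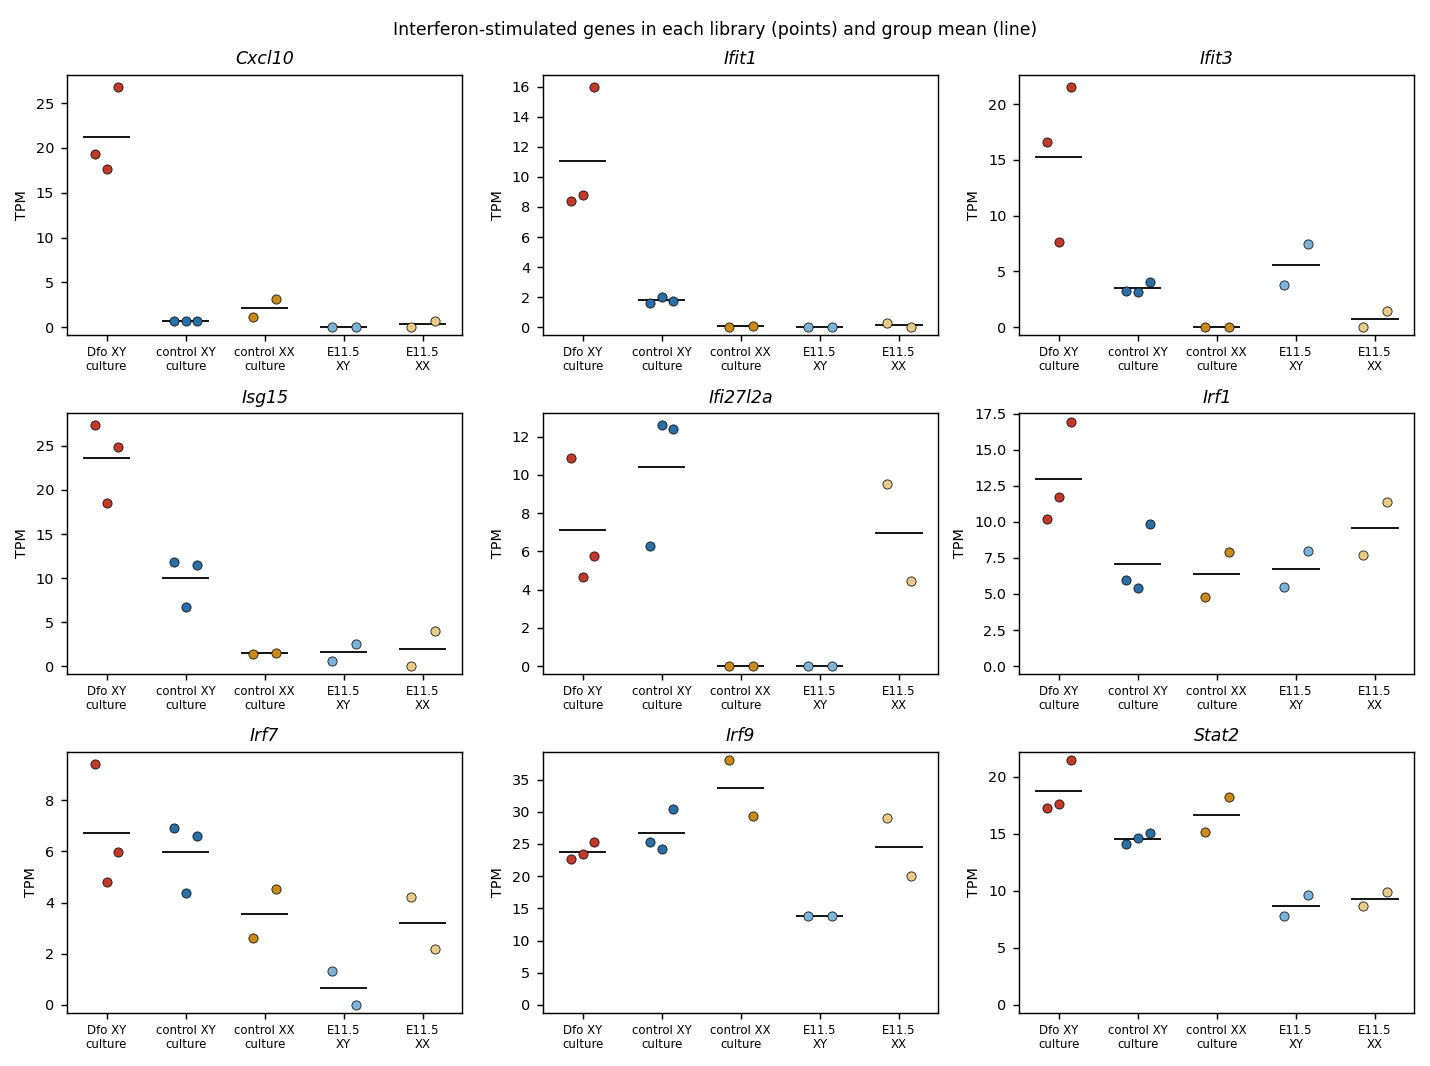
TPM of the 9 interferon-stimulated genes (vertical axes, linear, 1 panel per gene) in the 12 libraries by group; points are libraries and lines are group means. Cxcl10 stood at 17.6 to 26.85 TPM with Dfo and at or under 3.2 TPM in every other library, whereas Irf9 was highest in control XX culture and Ifi27l2a was listed at 0 in control XX culture and in E11.5 XY.

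Dfo XY replicates 1 and 2 stood apart from their label in Xist, the RNA expressed from the inactive X of XX cells: the 3 Dfo libraries had 13.57, 24.56 and 0.28 TPM, against at most 0.18 TPM in control XY culture and 124.3 to 174.8 TPM in the XX groups. Cxcl10, Ifit1, Ifit3, Irf1, Irf9 and Stat2 were highest in Dfo replicate 3, the library with 0.28 TPM of Xist. In control XY culture, Ifit3, Irf1, Irf9 and Stat2 were also highest in replicate 3, as was Cxcl10 by little (0.72 TPM, beside 0.71 and 0.70 TPM). Replicates 1 and 2 were also closer to each other than to replicate 3, with a median absolute log2 difference of 0.082 in Dfo XY culture and 0.07 in control XY culture, against 0.18 to 0.189 to replicate 3. Replicate 3 of each group listed more symbols above 0, at 18041 with Dfo and 18931 in control, against 16147 to 17668 in replicates 1 and 2 of these groups.

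The interferon genes themselves were hardly listed. Of 9 ligand genes, 7 were listed above 0 in Dfo replicate 3 and in control XY replicate 3, and at most 1 in each of their replicates 1 and 2. Their summed levels were 0.59, 0.72 and 13.16 TPM in Dfo XY culture, against 0, 0.50 and 8.05 TPM in control XY culture. Ifnb1, the gene of interferon beta, was at 0, 0 and 0.62 TPM with Dfo, against 0, 0 and 2.35 TPM in controls, and Ifng, that of interferon gamma, at 0, 0 and 1.02 TPM with Dfo, against 0, 0 and 0.32 TPM in controls. The 3 ligand genes that could be tested included none called with Dfo at an adjusted or an unadjusted p below 0.05 (limma). All 9 ligands were listed at 0 in control XX culture and in E11.5 XX, and they summed to 7.77 and 24.09 TPM in E11.5 XY.

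A wider list of 138 genes of the interferon pathway and of chemokines in general, written from textbook knowledge and without the 9, had 125 genes tested. This list, the lists within it and the NF-kB list below were chosen with earlier results of these data known. Their shares and p-values with Dfo are therefore a description. Of the 125, 14 were called higher and 8 lower with Dfo. These were 11.2% and 6.4% of those tested, beside 4.98% and 10.5% over all genes. The median log2 difference of the 125 was 0.22. With median-of-ratios scaling the split was 24 higher and 4 lower. The count was 10 without both Dfo libraries that hold Xist, 9 with replicates 1 and 2 averaged and 14 without Dfo XY replicate 1, in place of 22, and these settings also leave fewer samples.

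Chemokines held 5 of the 14 increases. Of 13 tested besides Cxcl10, those 5 rose with Dfo, 38.5% beside 4.98% over all genes, and none fell, beside 10.5%. At an unadjusted p below 0.05 (limma) 8 were higher and none lower, and the median log2 difference was 0.88. Ccl2, which draws monocytes, had 30.23, 21.68 and 25.58 TPM with Dfo, against 2.51, 1.07 and 1.65 TPM in controls (log2 difference 3.31 ± 0.39, limma adjusted p = 0.000137). Ccl7, Ccl4, Cxcl2 and Ccl20 also rose, by 1.73 ± 0.40, 2.12 ± 0.51, 1.49 ± 0.41 and 1.44 ± 0.35 in log2. Their calls were less steady than that of Ccl2, which held under all 20 alternatives: Cxcl2 lost its call under 7 of them and Ccl4 under 5.

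Antigen presentation genes went both ways. H2-K1, a class I heavy chain, had 79.09, 79.29 and 51.48 TPM with Dfo, against 9.37, 11.91 and 9.95 TPM in controls (log2 difference 2.62 ± 0.32, limma adjusted p = 0.000195). H2-Q4 (1.28 ± 0.26), H2-D1 (1.0 ± 0.26) and B2m (0.52 ± 0.16), the light chain of class I, rose as well, and these heavy chain genes belong to a family of near-identical copies whose reads may be split. H2-Q4 lost its call under 2 of 20 alternatives, H2-D1 under 5 and B2m under 15, whereas H2-K1 kept its call under all 20. Psme1 and Psme2, subunits of the proteasome activator that interferon gamma induces, fell by 0.61 and 0.49 in log2 (limma adjusted p = 0.00363 and 0.0491), and Psme2 lost its call under 17 of 20 alternatives. So 4 of 14 genes rose and 2 fell, 28.6% and 14.3% beside 4.98% and 10.5% over all genes.

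Of 49 other antiviral effectors, 4 rose and 1 fell, 8.16% and 2.04% of them beside 4.98% and 10.5% over all genes. Rsad2, the antiviral enzyme viperin, had 20.03, 18.05 and 29.70 TPM with Dfo, against 5.43, 4.38 and 5.35 TPM in controls (1.94 ± 0.23, limma adjusted p = 0.000153). Ifit3b (2.07 ± 0.37), Ifi204 (2.05 ± 0.32) and Samd9l (1.21 ± 0.37) rose, and Samd9l lost its call under 10 alternatives. Ifit3b is the near-identical neighbour of Ifit3 given above, so its rise may not be separate from that of Ifit3. Bst2, or tetherin, which holds budding virus at the cell surface, moved the other way, with 28.72, 19.78 and 28.13 TPM with Dfo, against 45.48, 49.96 and 69.12 TPM in controls (-1.07 ± 0.17, limma adjusted p = 0.00129). Ifit2 had 7.07 to 11.6 TPM with Dfo and 3.21 to 6.12 TPM in controls, without overlap, but was not called (limma adjusted p = 0.149).

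The receptors and kinases moved down or were not called. Of 10, none rose, beside 4.98% over all genes, and 3 fell, 30.0% beside 10.5% (limma; 1 and 4 at an unadjusted p below 0.05). Il10rb, a chain of the interferon lambda receptor, fell by 0.79 in log2, Ifnar1 by 0.48 and Ifngr2 by 0.38. Their limma adjusted p were 0.00618, 0.0132 and 0.037. Ifngr2 was not called under any of the 3 other scalings. Ifnar1 lost its call under 4 of 20 alternatives, among them median-of-ratios scaling (limma adjusted p = 0.0627). Ifnar1 had 47.51, 53.50 and 47.00 TPM with Dfo, against 69.73, 70.00 and 68.27 TPM in controls. Ifnar2 averaged 42.8 TPM with Dfo and 51.9 TPM in controls and Ifngr1 20.2 TPM with Dfo and 15.2 TPM in controls, and neither was called (limma adjusted p = 0.163 and 0.169). Among 6 inhibitors of the pathway, Socs3 rose by 1.0 ± 0.14, whereas Ptpn6 (-0.96 ± 0.24) and Trim24 (-0.29 ± 0.09) fell. So 16.7% rose and 33.3% fell, beside 4.98% and 10.5% over all genes. Ptpn6 lost its call under 5 of 20 alternatives and Trim24 under 13. Usp18, which removes Isg15 from proteins, had 9.99 to 25.05 TPM with Dfo and 5.03 to 11.78 TPM in controls and was not called (limma adjusted p = 0.0728). None of 14 nucleic acid sensors and adaptors, 5 other IRF genes or 13 interferon-gamma GTPases was called by limma (1, 1 and 3 at an unadjusted p below 0.05).

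NF-kB targets and regulators were counted apart, because Cxcl10 holds both kinds of site. Of 22 tested, 7 rose, 31.8% beside 4.98% over all genes, and none fell, beside 10.5% (limma; 11 and 2 at an unadjusted p below 0.05), with a median log2 difference of 0.52. Nfkbiz, an NF-kB cofactor, averaged 36.2 TPM with Dfo and 8.01 TPM in controls (2.05 ± 0.20, limma adjusted p = 3.59e-05). Tnfaip3 and Nfkbia, inhibitors of the factor, rose by 1.73 ± 0.24 and 1.14 ± 0.24, and Csf1, the macrophage growth factor, by 1.28 ± 0.22. The others were Ptgs2, Relb and Nfkb2, which lost their calls under 2, 6 and 1 of 20 alternatives.

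**Figure D2:**
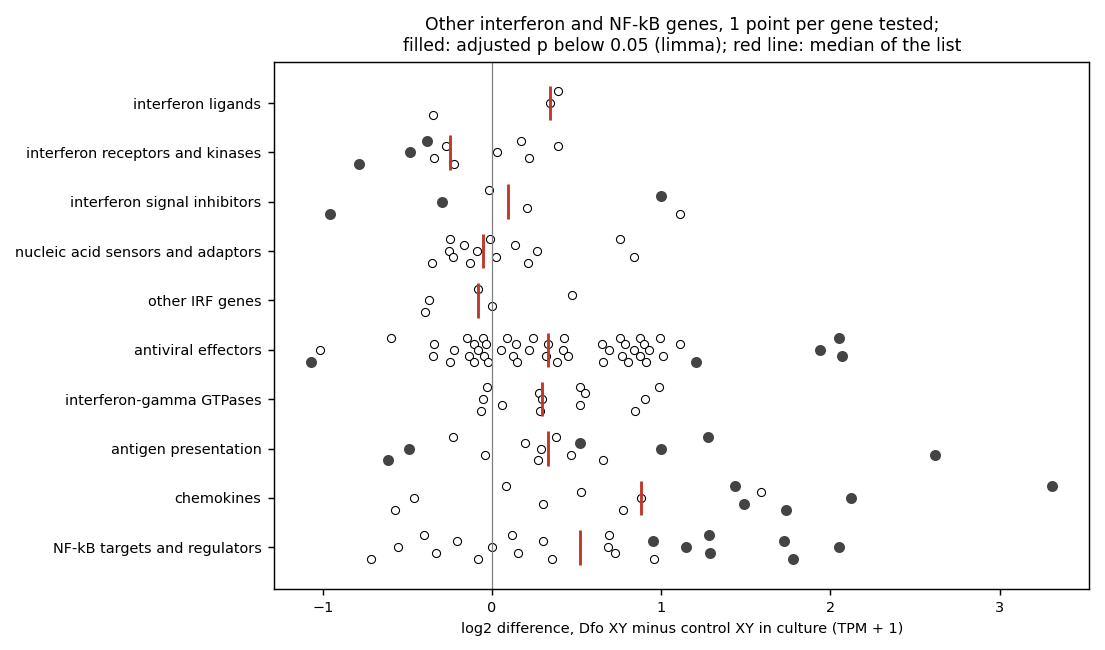
Log2 differences between Dfo XY and control XY culture (horizontal axis, log2 of TPM + 1) for genes of the 9 interferon lists and the NF-kB list; each point is 1 gene, dark points had a limma adjusted p below 0.05, red lines are list medians. Chemokines had the highest median, 0.88, and receptors and kinases the lowest, -0.25, beside -0.17 over all genes tested.

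Macrophage markers were looked at because the gate on NR5A1 should remove such cells and they are rich in interferon-stimulated genes. The 16 markers summed to 211.0, 152.8 and 242.0 TPM in Dfo XY culture, against 212.4, 178.6 and 117.8 TPM in control XY culture, so the groups overlapped, and none was called between them (1 higher at an unadjusted p below 0.05, limma). Ptprc, the pan-leukocyte marker, had 2.55, 1.65 and 4.09 TPM with Dfo, against 2.28, 1.59 and 1.99 TPM in controls. The 6 gonadal somatic markers, Nr5a1 among them, summed to 491.8 to 557.8 TPM with Dfo, against 648.3 to 794.2 TPM in controls. Of these 6, 4 fell, 66.7% beside 10.5% over all genes. In bulk samples, fewer cells of a type and less RNA per cell cannot be told apart. The part of these other cells in the differences was not tested.

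**Figure D3:**
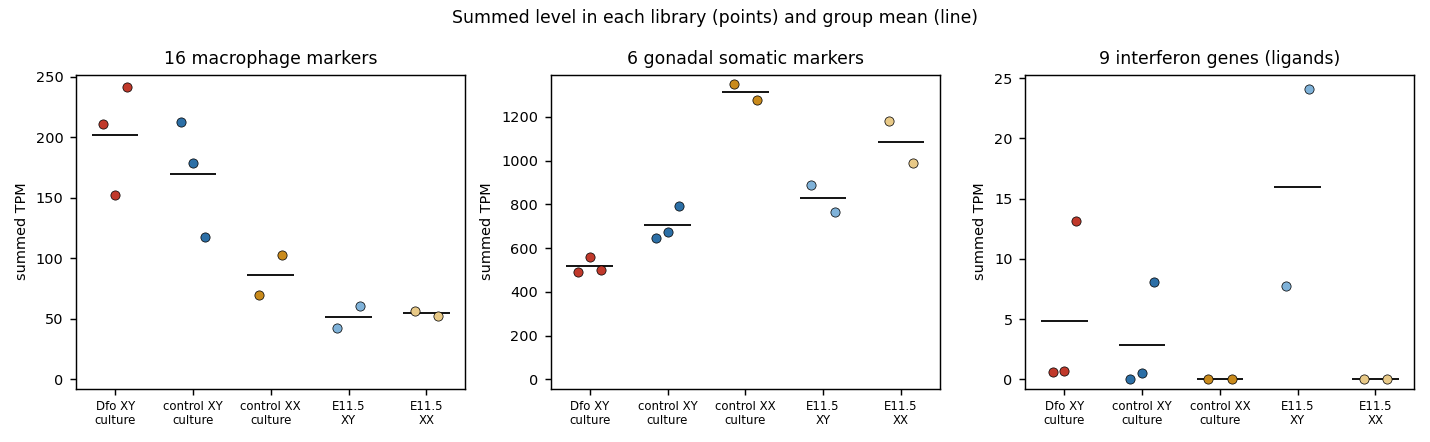
Summed TPM (vertical axes, linear) of 16 macrophage markers, 6 gonadal somatic markers and 9 interferon genes in each of the 12 libraries; points are libraries and lines are group means. Macrophage sums overlapped between Dfo XY and control XY culture and were lower in control XX culture and at E11.5.

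Between the sexes in culture, 4 of the 9 genes were higher in control XY than in control XX, and none was lower. Over all genes, 2.97% were called higher and 22.2% lower, with a median log2 difference of -0.22, and the median of the 9 was 0.62. Isg15 had 11.79, 6.66 and 11.44 TPM in control XY, against 1.43 and 1.44 TPM in control XX (log2 difference 2.13 ± 0.55, limma adjusted p = 0.0149). The other 3 were at or near 0 in XX. Ifit1 had 1.61 to 2.02 TPM in control XY, against 0 and 0.11 TPM in control XX (limma adjusted p = 0.00918). Ifit3 had 3.13 to 4.1 TPM in control XY and was listed at 0 in both control XX libraries (limma adjusted p = 0.00549). Ifi27l2a had 6.27 to 12.58 TPM in control XY and was also listed at 0 in both control XX libraries (limma adjusted p = 0.000426).

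The calls of Ifit3 and Ifi27l2a held under all 20 alternatives. Isg15 was no longer called without control XY replicate 1, control XX replicate 1 or control XX replicate 2 (limma adjusted p = 0.0525, 0.0724 and 0.0676), with a pseudocount of 0.1 (0.0979) or with quantile normalization (0.0564). Ifit1 lost its call without control XX replicate 1 (0.0577), which left 2 of the 9 genes called, with quantile normalization (0.118) and with replicates 1 and 2 averaged (0.0509). Cxcl10 was on the other side, with 0.70 to 0.72 TPM in control XY and 1.15 and 3.20 TPM in control XX, without overlap, but it was not called (limma adjusted p = 0.113). Irf1, Irf7 and Irf9 overlapped between the sexes. Stat2 had 14.06 to 15.05 TPM in control XY, against 15.14 and 18.17 TPM in control XX, and was not called (limma adjusted p = 0.488).

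Macrophage markers moved with this difference: 5 of 16 were higher in control XY, 31.2% beside 2.97% over all genes, and none lower, beside 22.2%. Their sums were 212.4, 178.6 and 117.8 TPM in control XY, against 69.79 and 102.6 TPM in control XX. C1qb, a complement gene of macrophages, had 17.39 to 23.58 TPM in control XY, against 9.0 and 9.73 TPM in control XX. Gonadal somatic markers summed to 648.3 to 794.2 TPM in control XY, against 1278 and 1350 TPM in control XX. Rpph1, the RNA of ribonuclease P, took 15.3% to 20.3% of all TPM in control XY, against 6.96% and 7.20% in control XX, and a larger share of 1 transcript lowers the TPM of all others. In Dfo XY culture Rpph1 took 19.5% to 23.6%. The part of each in the interferon genes was not tested.

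In the wider list, 11 genes were higher and 14 lower in control XY than in control XX, 8.8% and 11.2% of those tested beside 2.97% and 22.2% over all genes, and with median-of-ratios scaling 10 were higher and 3 lower. The count of 25 was 13 without control XY replicate 1 or either control XX library and 15 without control XY replicate 2. Receptors and kinases were mostly lower, 6 of 10, but the calls depended on the scaling: Ifnar1 (69.3 TPM in control XY, 132.9 TPM in control XX) and Jak1 (99.4 TPM in control XY, 166.9 TPM in control XX) were called under all 3 other scalings, and Ifnar2, Ifngr2 and Il10rb under none. Among the inhibitors, Trim24 (73.0 TPM in control XY, 117.0 TPM in control XX) was lower and was called under 2 of the 3 scalings. Antiviral effectors had 8 of 49 higher and 2 lower. Ptpn6, a phosphatase rich in blood cells, was higher by 1.30 ± 0.27 in log2 (limma adjusted p = 0.00509), Ifi27 by 1.6 ± 0.38 (0.0108) and Iigp1, an interferon-gamma GTPase, by 1.09 ± 0.28 (0.0152). Isg20, an RNA-degrading enzyme, averaged 2.90 TPM in control XY and was listed at 0 in control XX. Of the NF-kB list, Nfkb1, Tnip1 and Rela were lower, and none of the 3 was called under another scaling.

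At E11.5 the sexes differed in 1 of the 9 genes. Ifi27l2a was listed at 0 in both E11.5 XY libraries and had 9.50 and 4.45 TPM in E11.5 XX (limma adjusted p = 0.00701), so it was lower in E11.5 XY. Without E11.5 XX replicate 1 it was not called (limma adjusted p = 0.0838), which left none of the 9. Over all genes, 1.09% were called higher and 1.2% lower. Ifit3 had 3.80 and 7.44 TPM in E11.5 XY, against 0 and 1.43 TPM in E11.5 XX, and Irf9 had 13.74 and 13.81 TPM in E11.5 XY, against 28.99 and 20.01 TPM in E11.5 XX. Neither pair of groups overlapped, and neither gene passed the test (limma adjusted p = 0.0517 and 0.0592); with the replicate number as a block both did (0.0407 and 0.0317), which made 3 genes, as did leaving out E11.5 XX replicate 2, and 2 genes were called without replicate 3 of control XY or of Dfo XY culture. The block treats equal replicate numbers of all groups as paired, and pairing was not checked at E11.5. Irf7 had 1.33 and 0 TPM in E11.5 XY, against 4.22 and 2.19 TPM in E11.5 XX (limma adjusted p = 0.103).

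In the wider list, 2 genes were called higher and 6 lower in E11.5 XY than in E11.5 XX. These were 1.6% and 4.8% of those tested, beside 1.09% and 1.2% over all genes. Socs3, an inhibitor of the kinases, had 11.58 and 9.37 TPM in E11.5 XY, against 31.82 and 37.75 TPM in E11.5 XX (-1.64 ± 0.18, limma adjusted p = 0.000563), and this call held under all 20 alternatives. Jak1 (-0.67 ± 0.11), Ifnar2 (-0.72 ± 0.15) and Psme1 (-0.65 ± 0.14) were lower as well, with limma adjusted p = 0.0149, 0.0315 and 0.0357, and lost their calls under 3, 9 and 11 of 20 alternatives. Ifna1, an interferon alpha gene, had 7.77 and 3.92 TPM in E11.5 XY and Ifit1bl1 2.20 and 3.55 TPM, and both were listed at 0 in E11.5 XX. Those calls, at limma adjusted p = 0.0442 and 0.0495, were lost under 14 and 13 of 20 alternatives. The count of 8 was 1 without E11.5 XX replicate 1, and 2 or 3 without replicate 1 or 2 of control XY culture, Dfo XY culture, control XX culture or E11.5 XY.

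Ifi27l2a had opposite sex differences in culture and at E11.5. It was listed above 0 in every control XY culture and at 0 in both control XX cultures, and at E11.5 it was listed at 0 in both XY libraries and above 0 in both XX libraries. The difference of the sex differences was 6.38 ± 0.59 in log2(TPM + 1) (limma adjusted p = 0.00181), a size that the pseudocount sets because each sex difference has a group listed at 0. The call held under all 20 alternatives. Its near-identical neighbour Ifi27l2b was listed at 0 in all 12 libraries, so how reads were divided between the 2 genes bears on the level. Of all genes, 1.33% were called in either direction for this difference. Ifi27l2a was the 1 of 9 called (4 at an unadjusted p below 0.05); with the replicate number as a block Irf7 was called too (2.03 ± 0.56, limma adjusted p = 0.047), and 2 genes were called without E11.5 XX replicate 1. In the wider list none of 125 was called (20 at an unadjusted p below 0.05, limma), and 7 were with the replicate block, as were 3 when control XY replicate 3 was left out, 2 when Dfo XY replicate 3 was and 1 when E11.5 XY replicate 2 was.

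Cultured XY gonads were set against E11.5 XY gonads, the stage nearest to the end of the culture. Of the 9 genes, 6 were higher in control XY culture and none was lower, where 2.62% of all genes were called higher and 3.04% lower. The factors were among them. Irf7 had 6.93, 4.38 and 6.60 TPM in control XY culture, against 1.33 and 0 TPM in E11.5 XY (2.17 ± 0.41, limma adjusted p = 0.0104). Irf9 had 25.33, 24.20 and 30.37 TPM in control XY culture, against 13.74 and 13.81 TPM in E11.5 XY (0.90 ± 0.18, limma adjusted p = 0.0141). Stat2 had 14.06, 14.60 and 15.05 TPM in control XY culture, against 7.77 and 9.63 TPM in E11.5 XY (0.69 ± 0.17, limma adjusted p = 0.0399).

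Of the effector genes, Isg15, Ifit1 and Ifi27l2a were higher. Isg15 had 6.66 to 11.79 TPM in control XY culture, against 0.56 and 2.53 TPM in E11.5 XY (2.19 ± 0.55, limma adjusted p = 0.0391). Ifit1 and Ifi27l2a, at 1.61 to 2.02 and 6.27 to 12.58 TPM in control XY culture, were listed at 0 in both E11.5 XY libraries (limma adjusted p = 0.0221 and 0.000434). Ifit3 had 3.13 to 4.1 TPM in control XY culture, against 3.80 and 7.44 TPM in E11.5 XY, with overlap. Cxcl10 had 0.70 to 0.72 TPM in control XY culture and was listed at 0 in E11.5 XY, and was not called (limma adjusted p = 0.211). Irf1 overlapped.

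Several of these calls were lost when single libraries were left out. For Stat2 and Isg15 these include Dfo XY replicates 1 and 2, which are in neither of the compared groups. Without either of these 2 Dfo libraries the log2 differences stayed at 0.69 and 2.19, and only the SE and the adjusted p changed. Stat2 lost its call without any 1 of 7 libraries (up to a limma adjusted p of 0.185 without E11.5 XY replicate 1) and Isg15 without any 1 of 6 (up to 0.206, without the same library). Ifit1 lost it without control XY replicate 1 or 2 or either E11.5 XY library (0.0706 to 0.0941), Irf9 without either E11.5 XY library (0.0753 and 0.0563) and Irf7 without control XY replicate 1 (0.0507) or E11.5 XY replicate 2 (0.0714). The count of 6 was 2 without control XY replicate 1 or either E11.5 XY library, 3 without control XY replicate 2 and 2 with replicates 1 and 2 averaged. Both comparisons of control XY culture use the same 3 libraries, as does that with Dfo, so they are not independent of each other.

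Beside this, the macrophage sums were 117.8 to 212.4 TPM in control XY culture, against 42.31 and 60.29 TPM in E11.5 XY. Of 16 markers 5 were higher, 31.2% beside 2.62% over all genes. In the wider list 14 genes were higher and 2 lower, 11.2% and 1.6% of those tested beside 2.62% and 3.04% over all genes. This count of 16 was 9 without control XY replicate 1 and 7 without control XY replicate 2. H2-K1 averaged 10.4 TPM in control XY culture and 0.31 TPM in E11.5 XY (limma adjusted p = 0.000429), and Gbp3, an interferon-induced GTPase, 7.38 TPM in control XY culture and 0.86 TPM in E11.5 XY (0.000918). B2m (1.15 ± 0.18), Lgals3bp (2.07 ± 0.32) and Usp18 (2.11 ± 0.43) were higher too. Ifna1 and Ifi203 were lower, and in the NF-kB list Cd40, all at low levels. Ifna1 averaged 0.31 TPM in control XY culture and 5.85 TPM in E11.5 XY, and Ifi203 0.07 and 1.55 TPM. Cd40 averaged 1.13 TPM in control XY culture and 4.99 TPM in E11.5 XY. The calls of Ifna1, Ifi203 and Cd40 were lost under 6, 11 and 3 of 20 alternatives.

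In XX gonads 1 of the 9 genes was higher in culture than at E11.5 and 1 was lower. Stat2 had 15.14 and 18.17 TPM in control XX culture, against 8.67 and 9.90 TPM in E11.5 XX (0.78 ± 0.19, limma adjusted p = 0.0249), where 7.36% of all genes were called higher and 1.71% lower. This call was lost without any 1 of the 4 XX libraries (0.0544 to 0.123). Ifi27l2a was listed at 0 in control XX culture and had 9.50 and 4.45 TPM in E11.5 XX, and was lower (limma adjusted p = 0.0019). Cxcl10 had 1.15 and 3.20 TPM in control XX culture, against 0 and 0.72 TPM in E11.5 XX, and was not called (limma adjusted p = 0.0743). The wider list had 6 genes higher and 1 lower, 4.8% and 0.8% of those tested, both below the 7.36% and 1.71% over all genes. H2-K1 was higher by 2.44 ± 0.39, Gbp2 by 1.31 ± 0.32 and B2m by 1.03 ± 0.20, and Ifi27 fell by 1.46. Gbp2 lost its call under 4 of 20 alternatives, B2m under 3 and Ifi27 under 13. That count of 7 was 4 without control XY replicate 1 or 2 or control XX replicate 2, and 3 without E11.5 XX replicate 2. Traf1, of the NF-kB list, was lower, a call that was lost under 14 of 20 alternatives and held under none of the 3 other scalings. Whether culture moved the 9 genes differently in XY and XX gonads is the same contrast as the difference of the sex differences above, which called Ifi27l2a.

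**Figure D4:**
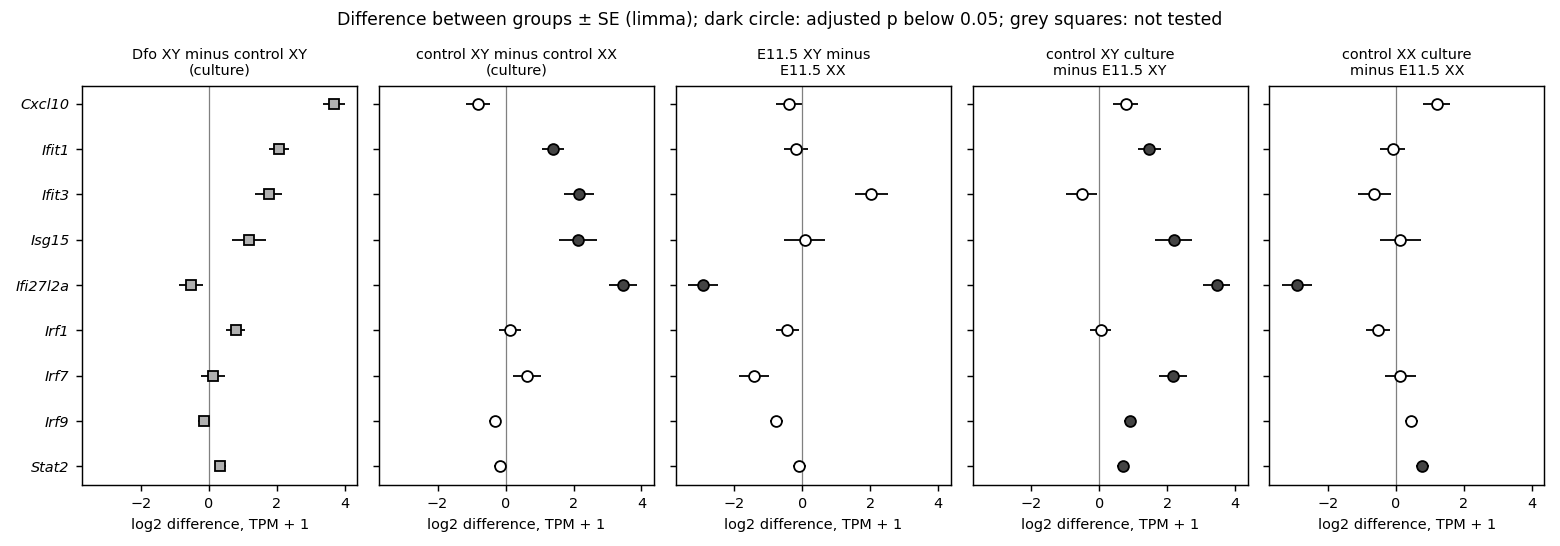
Log2 differences ± SE (horizontal axes, log2 of TPM + 1) of the 9 genes in 5 comparisons, named above each panel as first group minus second; dark circles had a limma adjusted p below 0.05, and grey squares mark the comparison that was used to choose the genes. Ifi27l2a lies on opposite sides of 0 in the sex comparisons in culture and at E11.5, and in the comparisons of culture with E11.5 in XY and XX.

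Over all 12 libraries the levels of the 9 genes were modest. The mean of Irf9 was above those of 76.1% of all symbols, that of Stat2 above 67.1%, and those of the other 7 above 51.9% to 61.7%. Irf1, Irf9 and Stat2 were listed above 0 in every library, and Ifit1 and Ifi27l2a were listed at 0 in 4 of 12. The order of the groups was not the same from gene to gene. Dfo XY culture was highest for 7 genes, control XX culture for Irf9 and control XY culture for Ifi27l2a. For Irf9, ranges of neighbouring groups overlapped down to Dfo XY culture and only E11.5 XY, the lowest, stood clear. For Irf1 every pair of neighbours in the order overlapped.

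Across the 12 libraries the 36 pairs of the 9 genes ranged widely in Pearson r on log2(TPM + 1), a description in which libraries share groups. The highest were 0.88 for Cxcl10 with Ifit1 and 0.87 for Ifit1 with Isg15, and the lowest was -0.44 for Ifit3 with Irf9. Among all genes with a mean of at least 5 TPM, those most like Cxcl10 were Map2k1 (r = 0.97), Aldoc (0.97) and Sesn2 (0.96), and those most like Ifit1 were Sdcbp (0.95), Mif (0.95) and Mthfd2 (0.94). None of these 6 is in the interferon lists. Irf7 was closest to Gbp3 (0.94), Arpc1b (0.93) and C1qb (0.92), and Ifi27l2a to Cyba (0.92), Unc50 (0.87) and F3 (0.80). Irf9 had Chchd3 (0.98), Prdm10 (0.96) and Hexa (0.95), and Stat2 had Mospd2, Scd1 and Slc1a5 (0.96 each). Isg15 had Cystm1 (0.92), Neat1 (0.91) and Th (0.91), Ifit3 had Mllt3 (0.95), Fau (0.91) and Meg3 (0.90), and Irf1 had Gfpt2 (0.88), Bet1l (0.87) and Mafk (0.87).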

How the data were processed

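RNA-seq of 12 libraries was analysed from TPM, which the authors deposited as 1 file per library. The tools were RSEM, R 4.1.2 and STAR 2.7.10b on mm10, per the submitters' processing notes; the RSEM version, annotation, strand setting and filters are unstated in the sources used here. Depth is unknown, since TPM keeps none, and the number of libraries limits the precision.

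limma 3.58.1 (R 4.3.3) was fitted to log2(TPM + 1) of all 12 libraries at once, with 1 coefficient per group and a variance trend, for the 16133 of 24411 genes that reached 1 TPM in 2 or more libraries. The Benjamini-Hochberg adjustment ran over all genes tested, separately in 6 contrasts, and a gene was called, or said to have risen or fallen, at an adjusted p below 0.05. The code was tested on simulated data. Positions are from GENCODE M21 and promoters from RefSeq, both of the mm10 build (GRCm38).

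The 9 genes, the gene lists and the tests were chosen with earlier results of these data known. The lists (9 of the interferon pathway and chemokines, NF-kB, and markers of macrophages, endothelium, erythroid, germ and gonadal somatic cells) were written from textbook knowledge. Up to 4 genes per list, direction and contrast were named, by smallest adjusted p, beside all 9 genes and a fixed set of pathway genes; other called genes of the Dfo comparison, and genes that overlap or resemble a member, were named after their values were seen. Some results of the interferon pathway are not reported here.

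Replicate numbers of Dfo and control XY cultures were checked for pairing: deviations from the group means correlated at 0.214, 0.119 and 0.335 for equal numbers, all above 0.1, so the fit with the number as a block is given where it changes a call. Unequal numbers correlated at 0.177 (Dfo 1 with control 2) and 0.144 (Dfo 2 with control 1), above the 0.119 of the replicates numbered 2, and at -0.274 to -0.184 with replicate 3. Pairing was not checked at E11.5 or in XX cultures. Alternatives (20) were another pseudocount, no filter, 3 scalings, the block, each library left out, both Dfo libraries with Xist left out, and replicates 1 and 2 averaged.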

Additional observations from a re-analysis of the deposited data

Results flagged for a closer look

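Ifi27l2a differed between groups in its sex difference: control XY minus control XX in culture, less E11.5 XY minus E11.5 XX, came to 6.38 in log2(TPM + 1) (SE 0.59, limma adjusted p = 0.00181). It was listed above 0 in all 3 control XY cultures and both E11.5 XX libraries, and at 0 in both control XX cultures and both E11.5 XY libraries. With a pseudocount of 0.1 the value was 12.7, and the call held.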

How the results depend on the processing

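The alternatives were median-of-ratios scaling, quantile normalization, the 50 most abundant genes left out, another pseudocount, no filter, the replicate block, each library left out, both Dfo libraries with Xist left out, and replicates 1 and 2 averaged. No called log2 difference of a single gene changed sign, but the wider list's split in control XY minus XX turned from mostly lower to mostly higher with median-of-ratios scaling, as given above. Of 1080 values of single genes under them, 1002 stayed called or stayed uncalled, 46 lost a call and 22 gained one. The other 10 were uncalled, changed sign and shifted by more than the SE of the fit used above. Uncalled values that changed sign by a smaller shift count among the 1002. Causes were not tested, and fewer samples enter where libraries are left out or averaged.

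Counts called among the 9 genes moved as follows. Dfo minus control had 3, and 5 with median-of-ratios scaling and with quantile normalization. It had 4 with the 50 genes left out and with the replicate block. With a pseudocount of 0.1 it had 2, since Ifit3 no longer passed the threshold. Control XY minus XX had 4, and 2 with quantile normalization and 2 to 4 with a library left out. E11.5 XY minus XX had 1, and 3 with median-of-ratios scaling, with the 50 genes left out and with the replicate block, 2 with quantile normalization and 0 to 3 with a library left out. XY culture minus E11.5 had 6, and 2 with replicates averaged and 2 to 6 with a library left out. XX culture minus E11.5 had 2, and 1 with median-of-ratios scaling, quantile normalization and averaging, and 1 to 2 with a library left out. The difference of sex differences had 1, and 2 with the replicate block and 1 to 2 with a library left out.

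In the wider list, Dfo minus control had 22, and 36 with quantile normalization, 10 without the Xist libraries, 9 with averaging and 14 to 22 with a library left out. Control XY minus XX had 25, and 13, 5 and 14 under the scalings in the order above, 9 with averaging and 13 to 25 with a library left out. E11.5 XY minus XX had 8, and 5 with quantile normalization, 3 without the Xist libraries, 2 with averaging and 1 to 10 with a library left out. XY culture minus E11.5 had 16, and 7 with averaging and 7 to 20 with a library left out. XX culture minus E11.5 had 7, and 4 with median-of-ratios scaling, without the Xist libraries and with averaging, 2 with quantile normalization and 3 to 8 with a library left out. The difference of sex differences had 0, and 2 with a pseudocount of 0.1, 1 with quantile normalization, 7 with the replicate block and up to 3 with a library left out. The paired fit, with the replicate block, changed no other count by over 1.5 times. Among the 9 genes it gained the calls of Ifit3, Irf9 and Irf7 given above. It also put Irf1 past the threshold in Dfo minus control (0.80 ± 0.19 in log2), the comparison that is described without a test. The scalings set the median of all genes from -0.22 to 0.07 in control XY minus XX and from -0.17 to -0.03 in Dfo minus control.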

Other observations

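Other cell types were measured beside the interferon genes. Erythroid markers summed to 1391 to 3231 TPM in Dfo XY culture, against 328.3 to 2546 TPM in control XY culture, with none of 10 called (1 at an unadjusted p below 0.05, limma). In control XY culture 4 of 10 were higher than in control XX culture, 40.0% beside 2.97% over all genes. In control XX culture the erythroid markers summed to 242.5 and 266.9 TPM. Endothelial markers summed to 132.0 to 213.6 TPM in Dfo XY culture, against 96.94 to 210.1 TPM in control XY culture, with none of 10 called (1 at an unadjusted p below 0.05, limma). In control XX culture 6 of 10 were lower than in E11.5 XX, 60.0% beside 1.71% over all genes. Germ cell markers summed to 2.39 to 9.29 TPM in Dfo XY culture, against 12.85 to 19.11 TPM in control XY culture, and none of 8 was called (2 lower at an unadjusted p below 0.05, limma). Dfo XY replicate 3 was the lowest for endothelial, erythroid and germ cell markers and the highest for macrophage markers.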
